A study of Mus musculus with 3 samples.

Results

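The library from mouse hearts under pressure load with artesunate was set against the library from sham-operated hearts, to describe what still differed from Sham in the treated hearts. The 2 libraries were taken by their labels and are 2 of the 3 in the series, with 10118 of its 17090 cells after filtering (3638 in Sham and 6480 in the treated library). All mice were C57B6, the ventricular tissue had been kept frozen until it was processed on the 10x Genomics platform, and each library pooled 3 hearts. Sham hearts were from mice given vehicle. TAC hearts were from mice with transverse aortic constriction (TAC), surgery in which the aortic arch is tied to a smaller width so that the left ventricle pumps against a raised pressure, also given vehicle. The treated hearts, called TAC+ART here, were from mice given artesunate, an antimalarial derived from artemisinin. The labels of that library give only ART and artesunate, and its constriction is stated in the design text of the series. Sex, age, dose, duration of the load, and whether whole cells or nuclei were loaded are not stated in the sources used.

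A heart under pressure load responds in several cell types at once. Fibroblasts take on an activated state and lay down collagen and matricellular proteins such as periostin, cardiomyocytes re-express genes of the fetal heart such as the natriuretic peptides, and macrophages of the blood join those that live in the tissue. MD2, encoded by Ly96 and named in the title of the series, is the co-receptor through which Toll-like receptor 4 (Tlr4) binds bacterial lipopolysaccharide and signals to NF-kB.

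There was 1 library per group, so no difference between groups could be tested and the spread between hearts is unknown. Levels are UMIs (unique molecular identifiers, 1 per captured RNA molecule) per 1000000 UMIs of a lineage or library (CPM). Ratios are log2 of TAC+ART over Sham after 0.5 was added to each count, and the range in brackets is the 95% interval of counting error only. TAC values are given beside them for orientation, and levels given in threes are always in the order Sham, TAC and TAC+ART. The TAC and TAC+ART ratios share the Sham library, so their likeness is no separate evidence. In these summed counts, fewer cells making an RNA and less RNA per cell cannot be told apart. A gene counted as higher or lower was at least 2-fold apart, with at least 100 UMIs in Sham and TAC+ART together.

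The libraries held 3752 (Sham), 7413 (TAC) and 6856 (TAC+ART) barcodes and 17710689, 37658150 and 33364667 UMIs, with medians of 4310.0, 4811 and 4524.5 UMIs per barcode. Pairs of libraries shared 20 to 27 barcodes. Several measures of RNA quality moved with the groups, and their part in the results was not tested. Ribosomal protein genes took 0.654% (Sham), 1.35% (TAC) and 1.11% (TAC+ART) of UMIs, and Malat1, a nuclear RNA, took 6.58%, 4.77% and 5.71%. RNA of other cell types was present in every lineage. The 10 fibroblast markers summed to 594 (Sham), 1715 (TAC) and 1742 (TAC+ART) CPM in cardiomyocytes, and to 1032, 1904 and 2475 CPM in macrophages. For this reason each count of genes is given with how many of them had their highest level in the lineage itself. The level had to be highest there in both Sham and TAC+ART, and the same count over all genes measured is given beside it. All markers of all 5 lineages described were highest in their own lineage in both libraries, for example 10 of 10 in fibroblasts and 11 of 11 in endothelial cells. Cells were assigned to lineages by these same markers, so this is no independent check of the assignment.

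The makeup of the libraries differed in 3 lineages. Macrophages made up 7.78% of Sham cells (6.93 to 8.70), 19.4% of TAC cells and 14.6% of TAC+ART cells (13.7 to 15.5), a log2 ratio of TAC+ART to Sham of 0.91 (0.72 to 1.09). Cardiomyocytes made up 8.08% (7.22 to 9.01) in Sham, 2.98% in TAC and 5.28% (4.75 to 5.85) in TAC+ART, a log2 ratio of -0.61 (-0.83 to -0.40). Mural cells, which are the pericytes and smooth muscle cells of vessel walls, made up 10.6%, 5.25% and 7.10%, a log2 ratio of -0.58 (-0.77 to -0.39). In each of these 3 lineages the TAC+ART share lay between the other two. Fibroblasts were 31.2% of Sham and 29.9% of TAC+ART cells and endothelial cells 35.8% and 34.2%, with intervals of the ratio that include 0. An earlier scaling of all the lineage scores, which left more cells unassigned, turned the fibroblast ratio to 0.26, so no direction is read from it. Under a stricter gate the endothelial ratio was -0.44. The unassigned shares were 5.66%, 8.20% and 7.89% in the same order.

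**Figure D1:**
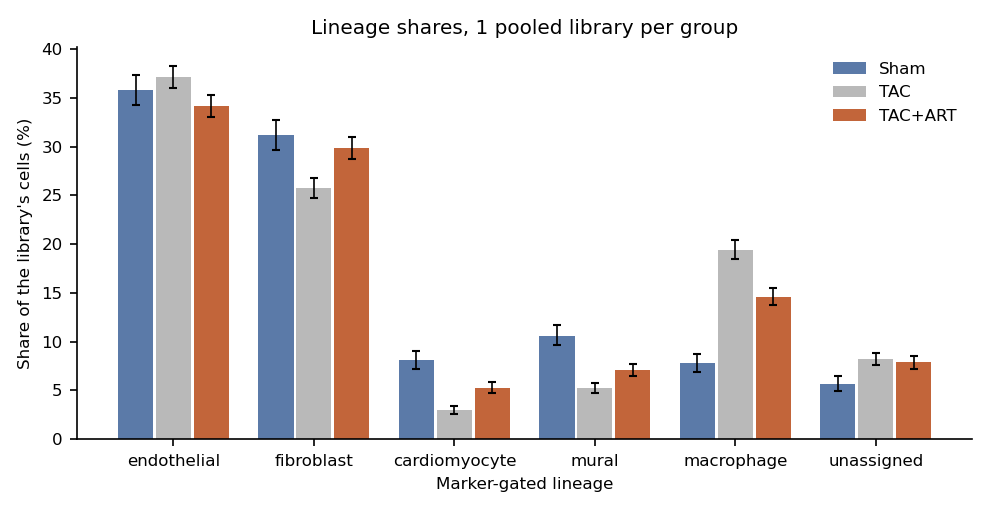
Share of each library's cells (vertical axis, %) in 5 marker-gated lineages and among unassigned cells, with exact 95% binomial intervals that cover counting error only. Macrophages were 7.78% of Sham and 14.6% of TAC+ART cells, and cardiomyocytes 8.08% and 5.28%.

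Over the whole libraries, 257 of 15506 genes measured (1.66%) were 2-fold or more higher in TAC+ART and 150 (0.967%) were 2-fold or more lower. With the lineage shares of TAC+ART set to those of Sham, 192 were higher and 98 lower, and 174 and 83 genes respectively were called both ways. The median log2 ratio over all genes was -0.04.

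Fibroblasts of the TAC+ART hearts held more RNA for the fibrous matrix and for matricellular proteins than Sham fibroblasts, and less for a set of genes of resting fibroblasts. The comparison rests on 1134 Sham and 1935 TAC+ART cells. Of 11528 genes measured, 337 (2.92%) were higher in TAC+ART and 107 (0.928%) lower, and the median ratio was -0.02. Fibroblasts were the lineage of highest level for 65 of the 337 and 56 of the 107, and for 1767 of all 11528.

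Cilp, a matrix protein of injured heart (GRCm38 chr9:65265180-65280605), had the largest ratio of the ranked genes. It was at 16.3 (Sham), 431 (TAC) and 155 (TAC+ART) CPM, a log2 ratio of 3.24 (2.94 to 3.57). Cells with at least 1 Cilp UMI, after each was thinned to 1000 UMIs, were 0.970%, 27.6% and 10.6% in Sham, TAC and TAC+ART. Thinning removed the difference in depth between libraries (median UMIs per fibroblast of 4587, 6048 and 5155), and it left out 1 Sham cardiomyocyte and 1 TAC+ART endothelial cell for low depth and no cell of the other lineages. Before thinning the shares were 3.35%, 63.3% and 29.8%. In mural cells, the lineage with the lowest level over Sham and TAC+ART, the thinned shares were 0%, 10.9% and 2.61%. TAC+ART therefore lay between Sham and TAC, with intervals apart from Sham. Adamtsl2, a microfibril-associated protein that binds latent TGF-beta binding proteins, was at 21.97 (Sham), 281 (TAC) and 191 (TAC+ART) CPM (log2 ratio 3.11, 2.85 to 3.39). Postn (chr3:54361109-54391037), which encodes periostin, was at 58.8, 1023 and 376 CPM in the same order (log2 ratio 2.68, 2.51 to 2.85). Thinned shares of fibroblasts with a Postn UMI were 2.38%, 43.4% and 20.6%, against 1.71%, 25.5% and 7.89% in cardiomyocytes. Mural cells held more Postn than fibroblasts in Sham, with 242, 483 and 325 CPM.

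The same ordering, Sham lowest, TAC+ART between and TAC highest, was found for Ccn2, a matricellular protein and classic TGF-beta target (47.6, 427 and 241 CPM, log2 ratio 2.34, 2.16 to 2.53). Meox1, a homeobox transcription factor linked to fibroblast activation, was at 14.7, 186 and 69.3 CPM (log2 ratio 2.23, 1.90 to 2.59). Mfap4 and Ltbp2, both of microfibrils, were at 18.2, 178 and 82.1 CPM (log2 ratio 2.17, 1.88 to 2.49) and 12.7, 244 and 53.2 CPM (log2 ratio 2.06, 1.70 to 2.44). Cst3, a secreted inhibitor of cysteine proteases, was at 132, 627 and 431 CPM, and Mgp, an inhibitor of calcification, at 548, 2157 and 1773 CPM. TAC+ART reached most of the TAC level for Mgp, at a log2 ratio of 1.69 (1.64 to 1.75) over Sham. The other 3 of the 12 highest, Nppa, Acta1 and Nppb, are cardiomyocyte genes. Fibroblasts held them at 7.63, 210.4 and 64.3 CPM, 29.4, 342 and 156 CPM and 16.9, 96.3 and 55.5 CPM, below the cardiomyocytes of the same library, and the levels in cardiomyocytes are given with that lineage.

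**Figure D2:**
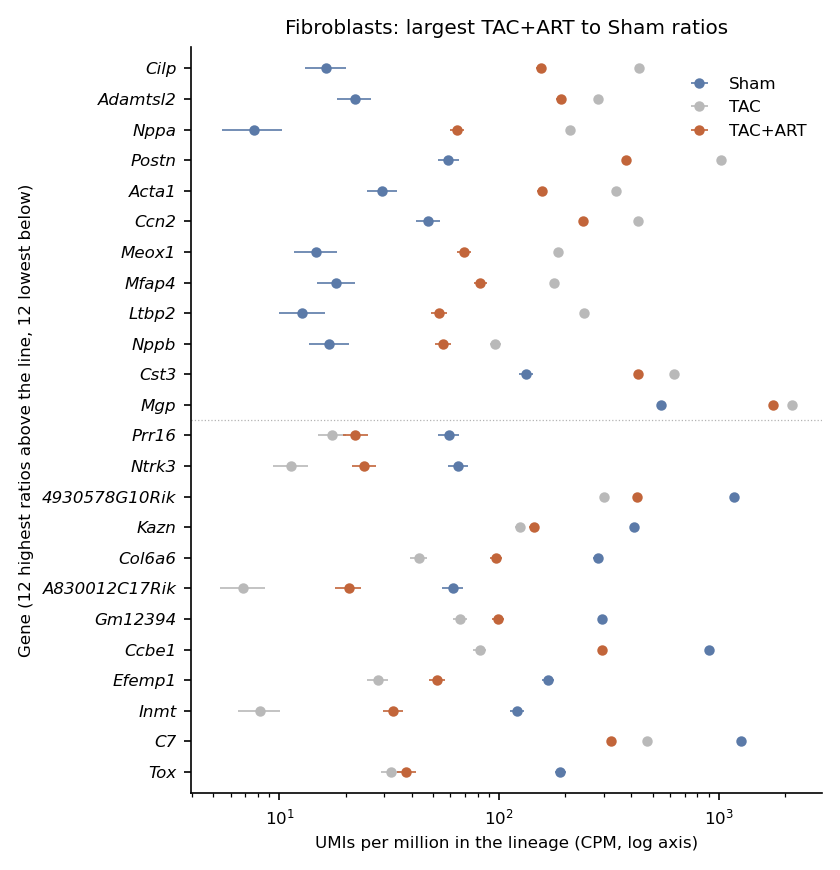
Levels in fibroblasts (CPM, log axis) of the 12 genes with the highest and the 12 with the lowest TAC+ART to Sham ratios, in Sham (blue), TAC (grey) and TAC+ART (orange), with 95% Poisson intervals. Cilp was at 16.3 CPM in Sham and 155 CPM in TAC+ART, and Tox at 190.1, 32.3 and 37.8 CPM in the order Sham, TAC and TAC+ART.

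Every one of the 37 collagen and matrix genes measured was higher in TAC+ART fibroblasts, and 17 were so by at least 2-fold, against 2.92% of all genes. The list's median was 0.98, where all genes had -0.02 and 5478 of 11528 were higher. In the same fibroblasts ribosomal protein genes had a summed log2 ratio of 0.97, with 80 of 83 measured members higher, and the ribosomal RNA gene Rn18s one of 1.32. The part of these RNA classes in the list's ratios was not tested. Col1a1, a chain of collagen I, was at 146, 721 and 451 CPM in Sham, TAC and TAC+ART (log2 ratio 1.62, 1.52 to 1.73), and Col3a1, the chain of collagen III, at 425, 1401 and 879 CPM (log2 ratio 1.05, 0.98 to 1.11). Biglycan (Bgn), a small proteoglycan, was at 322, 1525 and 977 CPM (log2 ratio 1.60, 1.53 to 1.67). Aspn, the proteoglycan asporin, was higher in TAC+ART than in TAC as well, at 84.8, 183 and 269.8 CPM, and Tnc, tenascin C, was at 3.81, 13.4 and 14.9 CPM with TAC and TAC+ART equal within counting error. The smallest log2 ratios of the list were 0.15 for Fbln1, fibulin 1, and 0.17 for Plod2, a collagen lysyl hydroxylase.

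The list of activated fibroblast genes had a median of 0.91, and 21 of its 23 measured members were higher, 9 at least 2-fold (2.92% of all genes were) and none 2-fold lower. All lists, this one included, were chosen with earlier results of these data known, so these counts are no independent evidence. Thbs4, thrombospondin 4, had 2 UMIs in Sham fibroblasts and was at 0.363, 80.1 and 14.7 CPM (log2 ratio 5.02, 3.46 to 8.39, a wide interval because of the Sham count). Comp, its relative in cartilage and tendon, was at 1.45, 73.02 and 19.7 CPM (log2 ratio 3.68, 2.75 to 4.99). These 2 genes lay much nearer to Sham than to TAC on the linear scale, while still apart from Sham. Fap, the fibroblast activation protein, differed little from Sham, at 325, 154 and 313 CPM (log2 ratio -0.05, -0.14 to 0.03), and Adam12 was lower, at 29.97, 35.6 and 20.5 CPM (log2 ratio -0.55, -0.85 to -0.25). Of 28 measured genes of TGF-beta signalling, 24 were higher and 5 at least 2-fold, against the same 2.92%, with a median of 0.45. Pmepa1, a feedback inhibitor of the pathway, was at 114, 489.9 and 322 CPM (log2 ratio 1.50, 1.38 to 1.62), and Ltbp1, which anchors latent TGF-beta in the matrix, was lower at 606, 379 and 372 CPM (log2 ratio -0.70, -0.77 to -0.64). Without the 6 members more than 5-fold below another lineage the median was 0.22 and 1 member was 2-fold higher.

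Among the genes lower in TAC+ART fibroblasts, Tox (chr4:6686353-6991557), a chromatin-binding factor best known from T cells, was at 190.1 (Sham), 32.3 (TAC) and 37.8 (TAC+ART) CPM, a log2 ratio of -2.33 (-2.50 to -2.16). Thinned shares of fibroblasts with a Tox UMI were 15.8%, 3.17% and 3.51% in the same order, and 33.3%, 8.79% and 8.73% before thinning, against 0.707%, 0.442% and 0.317% in macrophages after thinning. Tox in TAC+ART was near the TAC level and far from Sham. C7 (chr15:4988762-5063740), a component of the terminal complement complex, was at 1268, 471 and 323 CPM (log2 ratio -1.97, -2.03 to -1.91), lower in TAC+ART than in TAC. Thinned shares with a C7 UMI were 39.9%, 20.6% and 14.1%, and 57.8%, 40.9% and 29.4% before thinning, against 2.39%, 2.40% and 0.585% in cardiomyocytes after thinning. Inmt, a methyltransferase, was at 121, 8.12 and 33.01 CPM (log2 ratio -1.87, -2.06 to -1.68), and Ccbe1, a factor of lymphatic growth, at 903, 81.6 and 295 CPM (log2 ratio -1.62, -1.68 to -1.55). For these 2 genes TAC+ART was above TAC but had not reached Sham. Efemp1, a fibulin, was at 167, 28.01 and 52.4 CPM (log2 ratio -1.67, -1.83 to -1.52) and Col6a6, a collagen VI chain, at 281, 43.05 and 97.1 CPM (log2 ratio -1.53, -1.65 to -1.42). Kazn was at 413, 124 and 144 CPM, and Ntrk3, the receptor of neurotrophin 3, at 65.2, 11.3 and 24.2 CPM. The 4 others of the 12 lowest, Gm12394, A830012C17Rik, 4930578G10Rik and Prr16, had log2 ratios from -1.58 to -1.41.

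The resting fibroblast list holds genes already known from these libraries to be low in TAC, so its direction is no independent evidence. Its median was -0.30, with 21 of 30 members lower, 6 of them at least 2-fold (0.928% of all genes were), and 1 at least 2-fold higher. That member was Apod, a lipid carrier of the lipocalin family, at 21.8, 61.4 and 67.9 CPM (log2 ratio 1.63, 1.36 to 1.93). Kcnip1, a potassium channel subunit, was at 298, 49.1 and 422 CPM, above Sham in TAC+ART though low in TAC (log2 ratio 0.50, 0.42 to 0.58). The list thus held members that stayed low and members at or above Sham. The 6 markers of Schwann cells, which could share such genes, summed to 397, 101 and 292 CPM in fibroblasts. Only 1 of the 6 had enough UMIs to be measured there, so the sum rested mostly on 1 gene. In the other lineages of Sham the sum was 8.20 to 19.7 CPM. The part of Schwann cell RNA in these ratios was not tested.

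Smaller lists in fibroblasts differed less. The unfolded protein response stood at a median of 0.25, where 16 of 20 genes were higher and none 2-fold, led by the folding enzymes Pdia4 (log2 ratio 0.99) and Pdia6 (log2 ratio 0.95). Of all 11528 fibroblast genes measured, 5478 were higher. Acute phase genes and metallothioneins had a median of 0.41, with C3, the central complement protein, at 167, 535 and 302 CPM (log2 ratio 0.85, 0.74 to 0.96). Serpina3n, an acute-phase inhibitor of serine proteases, was at 21.2, 157 and 31.6 CPM, far nearer to Sham than to TAC. The NRF2 and glutathione list (median 0.03) and the iron and haem list (median -0.10) lay close to all genes. Ftl1 and Fth1, the ferritin chains that store iron, were nevertheless higher, at log2 ratios of 1.03 and 0.85.

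Cardiomyocytes of TAC+ART hearts kept a higher level of the natriuretic peptide genes and of skeletal actin than Sham cardiomyocytes, while the adult contractile genes differed little. The comparison rests on 294 Sham and 342 TAC+ART cells, with median UMIs of 7625.5 and 6548. Of 5702 genes measured, 216 (3.79%) were higher in TAC+ART and 54 (0.947%) lower, with a median of -0.04. Cardiomyocytes were the lineage of highest level for 36 and 23 of these, and for 1650 of all 5702.

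Nppa (GRCm38 chr4:148000722-148002079), which encodes atrial natriuretic peptide, was at 15.4 (Sham), 1394 (TAC) and 290.0 (TAC+ART) CPM, a log2 ratio of 4.22 (3.72 to 4.80). The thinned share of cardiomyocytes with an Nppa UMI was 0.683%, 42.8% and 11.99%, and 5.78%, 80.8% and 36.3% before thinning. In macrophages, not a known source of it, the thinned shares were 0.353%, 22.8% and 6.98%, with the same order of the libraries. Acta1 (chr8:123891769-123894751), skeletal muscle actin, was at 76.4, 1824 and 603 CPM (log2 ratio 2.98, 2.74 to 3.23). Nppb, B-type natriuretic peptide, was at 61.1, 716 and 228 CPM (log2 ratio 1.90, 1.62 to 2.20), and Ankrd1, a stretch-responsive ankyrin repeat protein, at 419, 3641 and 1496 CPM (log2 ratio 1.84, 1.73 to 1.95). For all 4 genes TAC+ART lay between Sham and TAC. Myh7, the slow myosin heavy chain that often accompanies them in loaded rodent heart, was at 490.4, 698 and 463 CPM and did not stand apart from Sham (log2 ratio -0.08, -0.21 to 0.04).

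The stretches just upstream of these 4 genes are shown because the genes were high together. They were taken from RefSeq on GRCm38.p6, 200 bases before each annotated start, written 5′ to 3′ on the gene's strand. Capitals mark the MCAT motif CATTCC on either strand, the element known to bind TEAD factors, and the CArG box, the element known to bind serum response factor.
Nppa, chr4:148000522-148000721, plus strand: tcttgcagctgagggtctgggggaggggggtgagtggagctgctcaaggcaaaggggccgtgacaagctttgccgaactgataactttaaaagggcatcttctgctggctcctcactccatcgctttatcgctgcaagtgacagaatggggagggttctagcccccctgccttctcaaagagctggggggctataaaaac
Nppb, chr4:147985700-147985899, plus strand: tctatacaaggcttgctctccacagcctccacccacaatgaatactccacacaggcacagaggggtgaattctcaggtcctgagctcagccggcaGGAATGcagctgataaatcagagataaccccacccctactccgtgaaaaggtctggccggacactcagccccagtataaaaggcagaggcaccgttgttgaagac
Acta1, chr8:123894776-123894975, minus strand: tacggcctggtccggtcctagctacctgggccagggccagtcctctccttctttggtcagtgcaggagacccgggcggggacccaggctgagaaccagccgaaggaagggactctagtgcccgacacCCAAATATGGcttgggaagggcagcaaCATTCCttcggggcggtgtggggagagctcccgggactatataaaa
Ankrd1, chr19:36119845-36120044, minus strand: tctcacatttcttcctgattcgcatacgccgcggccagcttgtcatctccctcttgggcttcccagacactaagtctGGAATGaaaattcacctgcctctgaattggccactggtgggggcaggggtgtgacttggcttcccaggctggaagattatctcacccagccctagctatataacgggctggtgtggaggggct
The Nppb, Acta1 and Ankrd1 stretches held an MCAT motif and the Acta1 stretch also a CArG box. Neither set of letters was in the Nppa window. Within 250 bases upstream, 4 of 20 promoters of the hypertrophy list (20%) held MCAT and 3 (15%) a CArG box. Over all 27025 RefSeq promoters the shares were 12.6% and 1.40%. A match is a description of the letters, not a bound site, and the genes and motifs were chosen after the values were seen.

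For the hypertrophy list the median was 0.83, and 16 of 18 measured genes were higher, 6 at least 2-fold and 1 at least 2-fold lower. Over all cardiomyocyte genes 2583 of 5702 were higher, 3.79% were 2-fold higher and 0.947% 2-fold lower. The lower one was Nmrk2, a kinase of NAD synthesis, at 52.9, 33.7 and 25.6 CPM (log2 ratio -1.04, -1.54 to -0.57). Flnc, filamin C of the sarcomere's Z disc, was at 72.1, 338 and 146 CPM (log2 ratio 1.01, 0.73 to 1.30). Adult contraction and ion handling had a median of -0.02 over 24 members, with none at 2-fold. Myh6, the main adult myosin heavy chain, was at 10554, 12312 and 10763 CPM (log2 ratio 0.03, 0.00 to 0.05). The list's ends were Actc1, cardiac actin (log2 ratio 0.81), and Kcnip2, a subunit of the transient outward potassium channel (179, 90.4 and 111 CPM, log2 ratio -0.69, -0.93 to -0.45). Kcnj3, an inward rectifier subunit, and Corin, the protease that activates atrial natriuretic peptide, had log2 ratios of -0.61 and -0.57.

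Genes of energy use split by pathway. Nuclear-encoded oxidative phosphorylation stood at a median of 0.75 and 24 of its 26 genes were higher, 2 of them at least 2-fold: Ndufb8 of complex I (90.9, 461 and 208 CPM) and Cycs, cytochrome c (109, 502 and 222 CPM). Ribosomal protein genes were also higher in the same cells, with a log2 ratio of 1.03 for their summed level and 77 of 78 measured members higher. Whether the list moved beyond that class was not tested. Glycolysis stood at 0.25, where 2 of 21 genes were 2-fold higher (3.79% of all genes were), Gapdh (log2 ratio 1.30) and Pgam2 (log2 ratio 1.13). Hk2, the inducible hexokinase, was lower, at 619, 318 and 319 CPM (log2 ratio -0.96, -1.09 to -0.82). Fatty acid oxidation had a median of -0.11, and Ucp3, a mitochondrial uncoupling protein, was far lower at 59.6, 13.2 and 12.8 CPM (log2 ratio -2.20, -2.87 to -1.62). The list's highest member, Fabp4, is an endothelial gene.

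Other genes high in TAC+ART cardiomyocytes were Astn2, a membrane protein known from neurons (33.2, 59.2 and 112 CPM), and Romo1 of the inner mitochondrial membrane (24.04, 144 and 74.9 CPM). Astn2 was higher in TAC+ART than in TAC. S100a1, a calcium sensor of cardiomyocytes, was at 79.8, 469 and 213 CPM (log2 ratio 1.42, 1.16 to 1.68), and Chchd10 of the mitochondrial intermembrane space at 105, 597 and 266 CPM. The remaining members of the 8 highest, Gm19951 and the ribosomal RNA gene Rn18s, were high in every lineage. Tlr4 was at 154, 430.0 and 417 CPM (log2 ratio 1.44, 1.25 to 1.63) in cardiomyocytes, near the TAC level.

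Among genes lower in TAC+ART, Nr4a1 (chr15:101254269-101274795), an orphan nuclear receptor induced by acute stimuli, was at 188 (Sham), 56.7 (TAC) and 21.5 (TAC+ART) CPM, a log2 ratio of -3.12 (-3.60 to -2.69). Thinned shares of cardiomyocytes with an Nr4a1 UMI were 16.7%, 5.29% and 1.75%, and 44.6%, 16.3% and 10.5% before thinning. In fibroblasts, the lineage with the lowest level in Sham and TAC+ART, the thinned shares were 2.03%, 3.45% and 0.724%. The TAC+ART shares of both lineages had overlapping intervals (0.646 to 3.78 in cardiomyocytes, 0.396 to 1.21 in fibroblasts). In TAC, mural cells and macrophages held less Nr4a1 than fibroblasts (16.9 and 20.4 against 35.6 CPM), so the fibroblast share there is no background. The Nr4a1 level in TAC+ART was below both other libraries, as was that of the unnamed transcript A530058N18Rik at 764, 710.3 and 289 CPM (log2 ratio -1.40, -1.54 to -1.27). Angpt1, a vessel-stabilising growth factor, was at 516, 222 and 192 CPM (log2 ratio -1.42, -1.59 to -1.26). Txnip, an inhibitor of glucose uptake, was at 277, 182 and 97.7 CPM (log2 ratio -1.50, -1.74 to -1.28). For Angpt1 TAC+ART was close to TAC. Ptch1, the Hedgehog receptor, Fancc, of DNA repair, and Cnnm2, a magnesium transport protein, had log2 ratios of -1.63, -1.55 and -1.47. Lgals4, a galectin, was at 196, 39.5 and 74.9 CPM.

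**Figure D3:**
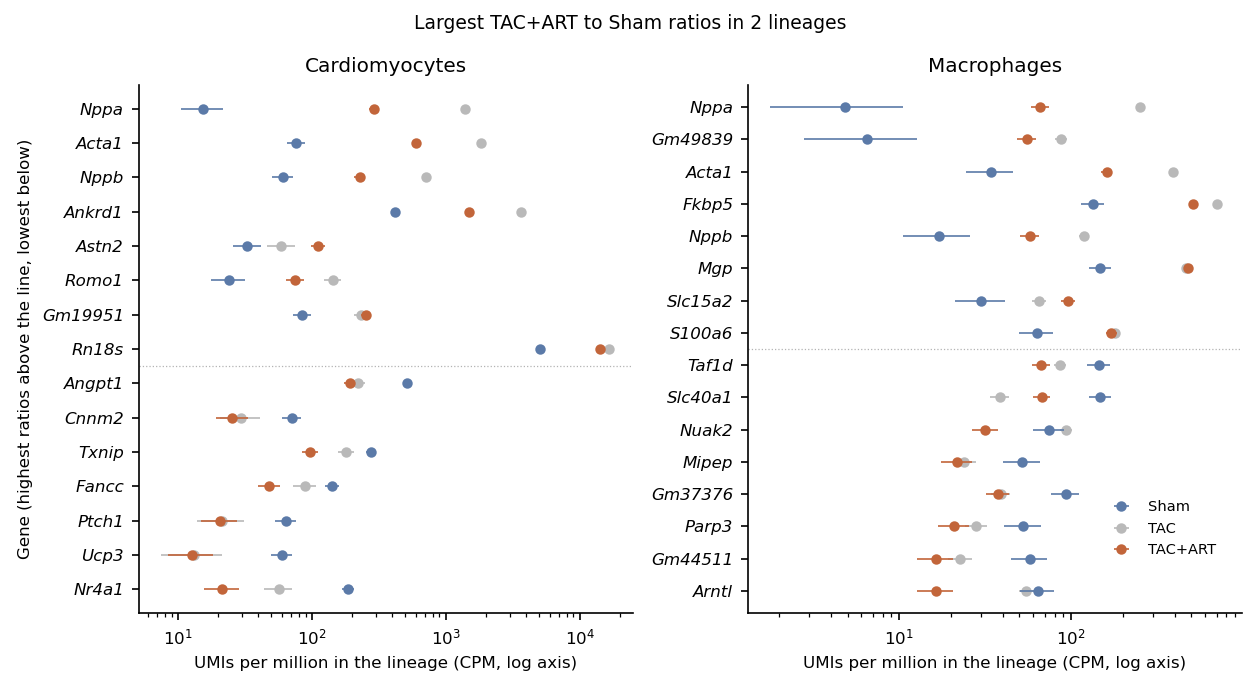
Levels (CPM, log axis) of the genes with the 8 highest and the 8 lowest TAC+ART to Sham ratios in cardiomyocytes (left, with 1 of the 8 lowest not shown) and macrophages (right), with 95% Poisson intervals. Nppa, Acta1 and Nppb appear in both panels, with lower levels in macrophages.

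Endothelial cells had few genes 2-fold apart. Over 1302 Sham and 2213 TAC+ART cells and 11316 genes measured, 142 (1.25%) were higher and 23 (0.203%) lower, with a median of -0.06. Endothelial cells were the lineage of highest level for 15 and 6 of these, and for 2331 of all 11316. Most of the 142 were thus genes that another lineage held at a higher level, as were most of all genes measured. Fibroblast markers summed to 1200.3, 2402 and 2980.2 CPM in these cells.

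Zbtb16 and Egr1 lay outside the range of the other two libraries in endothelial cells. Zbtb16 (chr9:48654297-48836222), a zinc finger repressor known as a glucocorticoid target, was at 407 (Sham), 519 (TAC) and 1041 (TAC+ART) CPM, a log2 ratio of 1.36 (1.29 to 1.42). The thinned share of endothelial cells with a Zbtb16 UMI was 32.9%, 36.97% and 59.1%, and 68.4%, 71.9% and 89.6% before thinning. In macrophages, the lineage with the lowest level, the thinned shares were 20.1%, 20.1% and 31.01%. TAC+ART was thus above both other libraries. The same was found for Zbtb16 in every lineage. It was at 904, 883 and 1198 CPM in fibroblasts, 877, 844 and 1266 CPM in cardiomyocytes, and 243, 244 and 368 CPM in macrophages. Egr1, a zinc finger factor of the immediate early response, was at 94.8, 41.8 and 12.8 CPM (log2 ratio -2.88, -3.18 to -2.60), below both. Thinned shares were 7.91%, 3.47% and 1.31%, and 18.7%, 11.8% and 4.16% before thinning, against 1.02%, 0.962% and 0.585% in cardiomyocytes after thinning, so that the TAC+ART share was close to background.

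Slc15a2, a peptide transporter, was at 17.7, 52.98 and 53.4 CPM (log2 ratio 1.58, 1.27 to 1.93), equal to TAC within counting error. S100a6, a calcium-binding protein, was at 71.9, 217 and 216 CPM (log2 ratio 1.58, 1.43 to 1.75), likewise at the TAC level. Edn1, the vasoconstrictor endothelin 1, led the endothelial activation list at 12.6, 29.9 and 31.4 CPM (log2 ratio 1.31, 0.93 to 1.73). Its list stood at a median of 0.09, and 2 of 15 members were 2-fold higher, where all genes had a median of -0.06 and 1.25% were 2-fold higher. Members such as Vcam1, an adhesion molecule (166, 373 and 177 CPM), and Lrg1 (10.7, 58.2 and 15.7 CPM) were near Sham although high in TAC. Capillary and arterial genes had a median of 0.15 with none of 23 at 2-fold, and Nos3, which makes nitric oxide, was at 236, 231 and 184 CPM (log2 ratio -0.36, -0.47 to -0.25). Hlf, a clock output factor, and Chrm3, a muscarinic receptor, were lower at 138, 34.2 and 76.6 CPM and 675, 404 and 401 CPM. The cell cycle list had a median of 0.08, and its marker of cycling cells Mki67 was at 5.15, 5.16 and 12.2 CPM (log2 ratio 1.22, 0.63 to 1.91).

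Mural cells had 89 of 6175 genes measured (1.44%) higher and 11 (0.178%) lower, over 386 Sham and 460 TAC+ART cells, with a median of -0.04. Mural cells were the lineage of highest level for 2 and 1 of these, and for 912 of all 6175. Egr1 was at 214 (Sham), 45.1 (TAC) and 26.6 (TAC+ART) CPM, with an interval of the log2 ratio from -3.44 to -2.61, and thinned shares of cells with a UMI were 19.2%, 4.92% and 3.26%, and 38.1%, 13.7% and 8.91% before thinning, with the same background in cardiomyocytes. Zbtb16 was at 268, 369.7 and 663 CPM (log2 ratio 1.30, 1.15 to 1.46). Both genes thus differed in mural cells in the same direction as in endothelial cells.

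Igfbp4, a binding protein of insulin-like growth factors, was at 24.9, 53.8 and 71.5 CPM (log2 ratio 1.51, 1.02 to 2.05), and Ifi27l2a, an interferon-induced gene, at 24.3, 83.2 and 71.99 CPM (log2 ratio 1.55, 1.06 to 2.10). The contractile list had 17 of 18 members lower, all less than 2-fold and 6 with an interval below 0, where 3461 of all 6175 genes were lower. Its median was -0.12 against -0.04 for all genes. Its lowest, Acta2, smooth muscle actin, was at 114, 72.3 and 57.3 CPM (log2 ratio -0.99, -1.33 to -0.66). Under a stricter gate that ratio was 0.81, so no direction is read from it. For collagen and matrix genes the median in mural cells was 0.43, and 8 of 27 were 2-fold higher. Over all mural genes the median was -0.04 and 1.44% were 2-fold higher. Without the 7 members more than 5-fold below another lineage 3 members were 2-fold higher, and fibroblast markers in mural cells summed to 2461, 3130.0 and 3815 CPM. TGF-beta signalling had a median of -0.02, with none of 23 members at 2-fold.

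Macrophages of TAC+ART hearts held more RNA for glucocorticoid-response and antigen presentation genes than Sham macrophages. Neither was particular to macrophages, as both lists had medians above 0 in other lineages too. The comparison rests on 283 Sham and 945 TAC+ART cells. In the same macrophages ribosomal protein genes had a summed log2 ratio of 0.85, with 77 of 80 measured members higher, and Rn18s one of 1.34, and their part in the list medians was not tested. Of 7788 genes measured, 169 (2.17%) were higher and 36 (0.462%) lower, with a median of -0.05. Macrophages were the lineage of highest level for 20 and 7 of these, and for 2489 of all 7788.

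Fkbp5 (chr17:28399094-28517527), a co-chaperone of the glucocorticoid receptor and one of its best known targets, was at 133 (Sham), 709 (TAC) and 514 (TAC+ART) CPM, a log2 ratio of 1.94 (1.72 to 2.18). Thinned shares of macrophages with a UMI were 10.95%, 45.9% and 37.04%, and 33.9%, 86.4% and 76.6% before thinning, against 3.75%, 2.88% and 8.19% in cardiomyocytes after thinning. Ccnd3, cyclin D3, was at 495, 1412 and 1265 CPM (log2 ratio 1.35, 1.23 to 1.48), near the TAC level. Apoe, an apolipoprotein of lipid-laden macrophages, was at 731, 2055 and 1514 CPM (log2 ratio 1.05, 0.95 to 1.15), and Trem2, a lipid receptor of such cells, at 21.8, 47.3 and 47.5 CPM (log2 ratio 1.10, 0.54 to 1.76). Wfdc17, a small secreted protein, was at 52.5, 111 and 134 CPM, and Selenop, which carries selenium, at 380.0, 461 and 801 CPM. Of these, Wfdc17 and Selenop were higher in TAC+ART than in TAC. The transcript Gm49839 was at 6.47, 87.5 and 55.4 CPM, and Slc15a2 at 29.9, 65.03 and 96.1 CPM (log2 ratio 1.67, 1.20 to 2.21).

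Pdgfc (chr3:81036416-81214040), a growth factor for fibroblasts, was at 424 (Sham), 171 (TAC) and 861 (TAC+ART) CPM, so that TAC was lowest and TAC+ART highest (log2 ratio 1.02, 0.89 to 1.16). Thinned shares of macrophages with a Pdgfc UMI were 24.4%, 11.1% and 44.3%, and 44.5%, 29.6% and 68.9% before thinning, while fibroblasts had 0.441%, 0.667% and 0.982% after thinning. Adrb1, the beta 1 adrenergic receptor, was also above both other libraries at 25.1, 30.95 and 61.96 CPM (log2 ratio 1.29, 0.77 to 1.89).

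Lower in TAC+ART macrophages was Arntl (chr7:113207465-113314126), the clock activator also called Bmal1, at 63.9, 54.9 and 16.3 CPM (log2 ratio -1.97, -2.45 to -1.49). Nuak2, a kinase related to AMPK, was at 74.4, 93.3 and 31.7 CPM (log2 ratio -1.23, -1.62 to -0.84), and like Arntl it was below both other libraries. Slc40a1, the iron exporter ferroportin, was at 147, 38.4 and 67.6 CPM (log2 ratio -1.12, -1.39 to -0.85), between TAC and Sham. Thinned shares of macrophages with a Slc40a1 UMI were 7.07%, 3.47% and 4.66%, and 19.4%, 8.78% and 14.5% before thinning. Intervals of the Sham and TAC+ART shares overlapped both ways, so the shares did not set these libraries apart as the summed level did. Other genes of iron handling were lower too: Tfrc, the transferrin receptor, at 148, 48.96 and 80.05 CPM (log2 ratio -0.89, -1.15 to -0.62) and Hmox1, which breaks down haem, at 55.8, 42.6 and 29.8 CPM (log2 ratio -0.91, -1.33 to -0.46). Ftl1 was higher (149.6, 351 and 305 CPM, log2 ratio 1.03, 0.81 to 1.26), and over the whole list the median was -0.11, 2 of 20 members being 2-fold higher and 1 lower. Over all macrophage genes the median was -0.05, with 2.17% 2-fold higher and 0.462% 2-fold lower.

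Resident macrophage genes had a median of -0.14, with 11 of 17 lower and none at 2-fold, where 4417 of all 7788 genes were lower. Pf4, a chemokine of resident cells, was highest (111, 159.5 and 185 CPM) and Mgl2, a lectin, lowest (182, 103 and 116 CPM). Genes of recruited and lipid-associated macrophages stood at a median of 0.34, where 10 of 13 were higher, 3 of them 2-fold, where 3371 of all 7788 genes were higher and 2.17% 2-fold. Without the 3 members more than 5-fold below another lineage the median was 0.21 and 2 were 2-fold higher. Ccr2, the receptor that marks recruited monocytes, was at 69.5, 87.1 and 102 CPM (log2 ratio 0.55, 0.22 to 0.91), and Nlrp3, a sensor of the inflammasome, was lower at 46.9, 28.4 and 20.1 CPM (log2 ratio -1.22, -1.71 to -0.72). Antigen presentation had a median of 0.80 with all 11 members higher and 2 at 2-fold, the class II chains H2-Aa (146, 235 and 339 CPM, log2 ratio 1.22, 0.996 to 1.45) and H2-Eb1 (129, 185 and 273 CPM, log2 ratio 1.08, 0.85 to 1.33). TAC+ART was above TAC for both chains. In fibroblasts and endothelial cells the same list had medians of 1.19 and 0.77, but macrophages held 4 of the members at more than 5 times their level there. Without these the medians were 0.69 and 0.33. In cardiomyocytes and mural cells, with 4 members measured in each, the medians were 1.61 and 1.10, and the part of RNA from other lineages was not tested. B2m, a member of the list, was higher in every lineage. Its log2 ratio was 0.80 in macrophages, 1.73 in cardiomyocytes, 1.19 in fibroblasts, 1.12 in mural cells and 0.77 in endothelial cells.

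**Figure D4:**
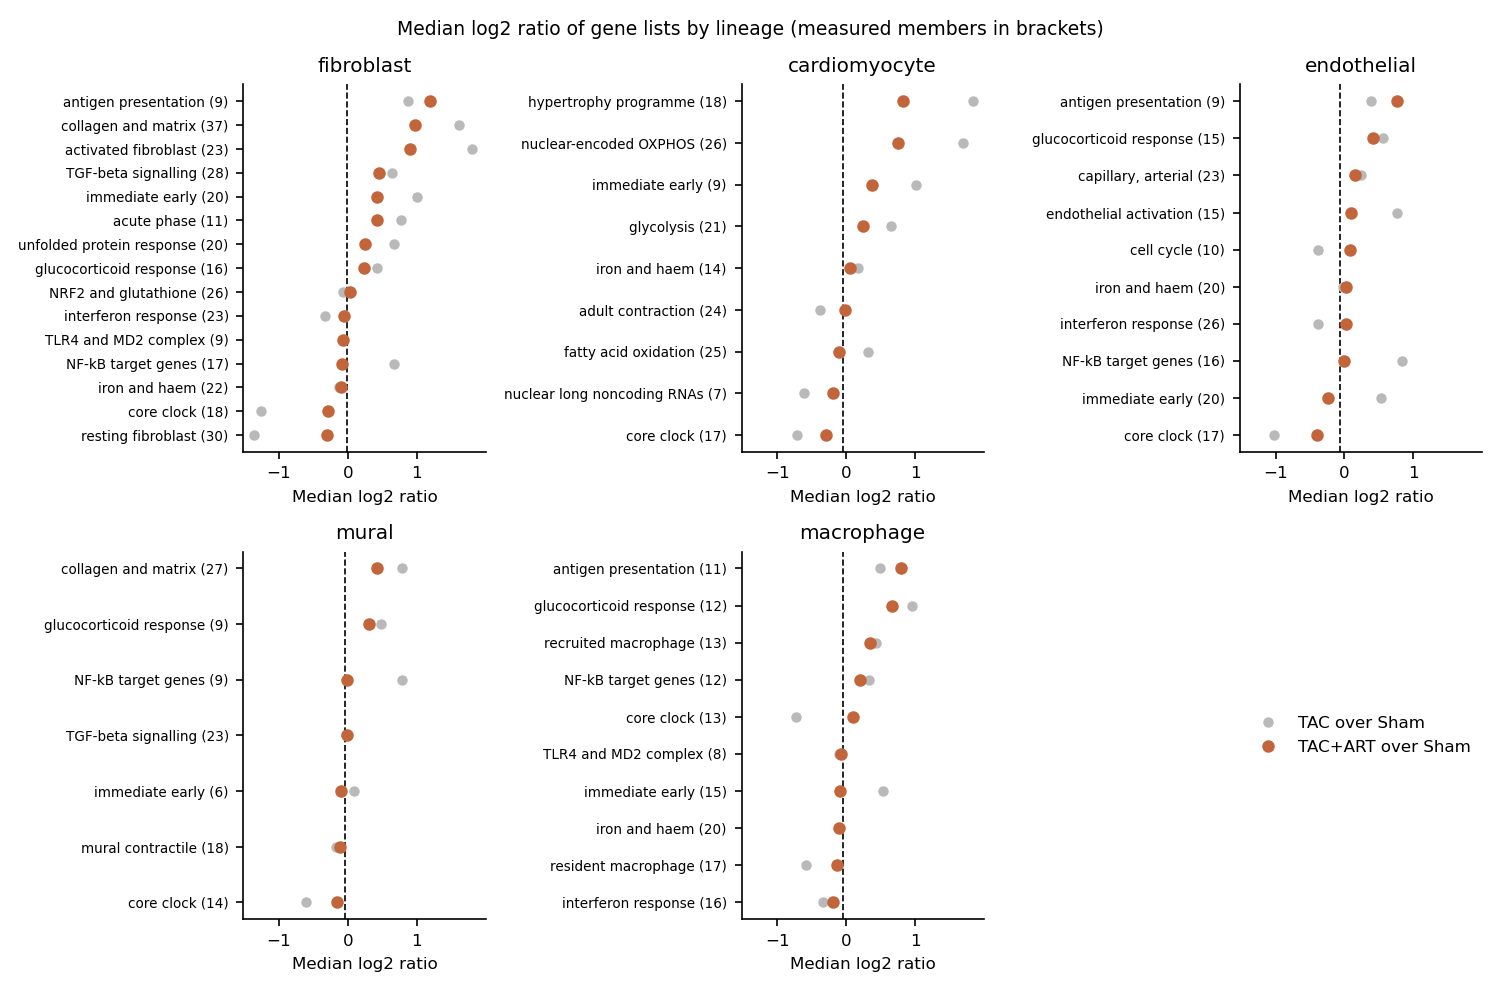
Median log2 ratio of each gene list in each lineage (horizontal axis) for TAC+ART over Sham (orange) and TAC over Sham (grey), which share the Sham library. The dashed line is the median of TAC+ART over Sham for all measured genes. Collagen and matrix genes in fibroblasts had a median of 0.98 and hypertrophy genes in cardiomyocytes 0.83.

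The genes of the receptor complex named in the title were close to Sham in macrophages and fibroblasts, while Tlr4 was higher in the other 3 lineages. Ly96 was highest in macrophages, at 72.8 (Sham), 70.99 (TAC) and 75.3 (TAC+ART) CPM (log2 ratio 0.04, -0.29 to 0.40), and Tlr4 there was at 177, 186 and 183 CPM (log2 ratio 0.05, -0.17 to 0.27). In fibroblasts Ly96 was at 15.6, 14.8 and 14.3 CPM (log2 ratio -0.13, -0.52 to 0.27) and Tlr4 at 104, 99.1 and 106 CPM (log2 ratio 0.03, -0.12 to 0.18). Tlr4 had a log2 ratio of 1.44 in cardiomyocytes, 0.51 (0.30 to 0.73) in endothelial cells and 0.46 (0.04 to 0.91) in mural cells. The TLR4 and MD2 list had medians of -0.07 in fibroblasts and -0.08 in macrophages, with no member at 2-fold. NF-kB target genes had medians of -0.09 in fibroblasts, -0.01 in endothelial and mural cells and 0.20 in macrophages, against TAC medians of 0.67, 0.84, 0.78 and 0.33. In fibroblasts 1 of 17 members was 2-fold lower (0.928% of all genes were), Cxcl1, a neutrophil chemokine, at 29.1, 32.8 and 6.85 CPM (log2 ratio -2.08, -2.51 to -1.67). In endothelial cells Tnfaip3, an NF-kB feedback inhibitor, was at 6.86, 36.6 and 10.3 CPM and Relb, an NF-kB subunit, at 40.8, 85.05 and 33.4 CPM. Both were high in TAC and near Sham in TAC+ART.

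Immediate early and heat shock genes did not go one way. The list's medians were 0.42 in fibroblasts, 0.38 in cardiomyocytes, -0.24 in endothelial cells, -0.10 in mural cells and -0.09 in macrophages. Egr1 and Nr4a1 were low in several lineages, with Nr4a1 at 19.98, 35.6 and 6.18 CPM in fibroblasts (log2 ratio -1.69, -2.16 to -1.24) and 32.6, 46.6 and 8.94 CPM in endothelial cells (log2 ratio -1.86, -2.26 to -1.48). Egr1 was at 55.6, 101 and 34.2 CPM in fibroblasts (log2 ratio -0.70, -0.93 to -0.48). Junb, Dusp1, Btg2 and Ier2 lay below Sham in every lineage where they were measured, not always beyond counting error. Their log2 ratios in endothelial cells were -0.98, -0.42, -0.51 and -0.81. Of the whole list, 13 of 20 measured members were higher in fibroblasts and 8 of 20 in endothelial cells. Over all genes 5478 of 11528 and 4581 of 11316 were higher. Hspb1, a small heat shock protein, had a log2 ratio of 1.06 in fibroblasts, 0.90 in cardiomyocytes and 1.23 in macrophages, and 0.21 (-0.02 to 0.44) in endothelial cells.

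Clock genes lay mostly below Sham, less so than in TAC. Medians were -0.29 in fibroblasts (-1.26 in TAC), -0.29 in cardiomyocytes (-0.71), -0.39 in endothelial cells (-1.02), -0.16 in mural cells (-0.61) and 0.10 in macrophages (-0.73). In fibroblasts Ciart, a clock repressor, was at 22.7, 2.24 and 11.003 CPM (log2 ratio -1.04, -1.42 to -0.67) and Per3 at 290.4, 58.5 and 194 CPM (log2 ratio -0.58, -0.67 to -0.48), while Npas2, a clock activator, was at 8.90, 70.1 and 23.6 CPM (log2 ratio 1.40, 0.96 to 1.88). The time of day at which each heart was taken is not stated in the sources used.

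Glucocorticoid-response genes had medians of 0.23 in fibroblasts, 0.42 in endothelial cells, 0.31 in mural cells and 0.67 in macrophages. Tsc22d3, which encodes the glucocorticoid-induced leucine zipper, was at 106, 184 and 206 CPM in fibroblasts (log2 ratio 0.96, 0.83 to 1.10), 83.7, 177 and 163 CPM in endothelial cells (log2 ratio 0.96, 0.81 to 1.12) and 131, 336 and 231 CPM in macrophages (log2 ratio 0.81, 0.58 to 1.06). Fkbp5 did not differ from Sham in fibroblasts beyond counting error (log2 ratio -0.01, -0.08 to 0.06). Klf9, a Kruppel-like factor, was at 67.1, 141 and 137 CPM in macrophages (log2 ratio 1.02, 0.69 to 1.37). Interferon-response genes had medians of -0.06 in fibroblasts, 0.02 in endothelial cells and -0.19 in macrophages, near those of all genes.

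Nppa, Acta1 and Postn were higher in TAC+ART than in Sham in all 5 lineages. Nppa was at 13.5, 306 and 77.2 CPM in endothelial cells, 10.1, 237 and 67.9 CPM in mural cells and 4.85, 252 and 65.8 CPM in macrophages, in each case below cardiomyocytes. Acta1 in the same 3 lineages was at 37.4, 456 and 209 CPM, 31.5, 431 and 178 CPM and 33.96, 392 and 161 CPM. Postn in macrophages was at 8.89, 235 and 96.8 CPM and in endothelial cells at 20.02, 277 and 107 CPM. The ratios of Nppa and Acta1 outside cardiomyocytes, and of Postn outside fibroblasts and mural cells, are not read as expression there.

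**Figure D5:**
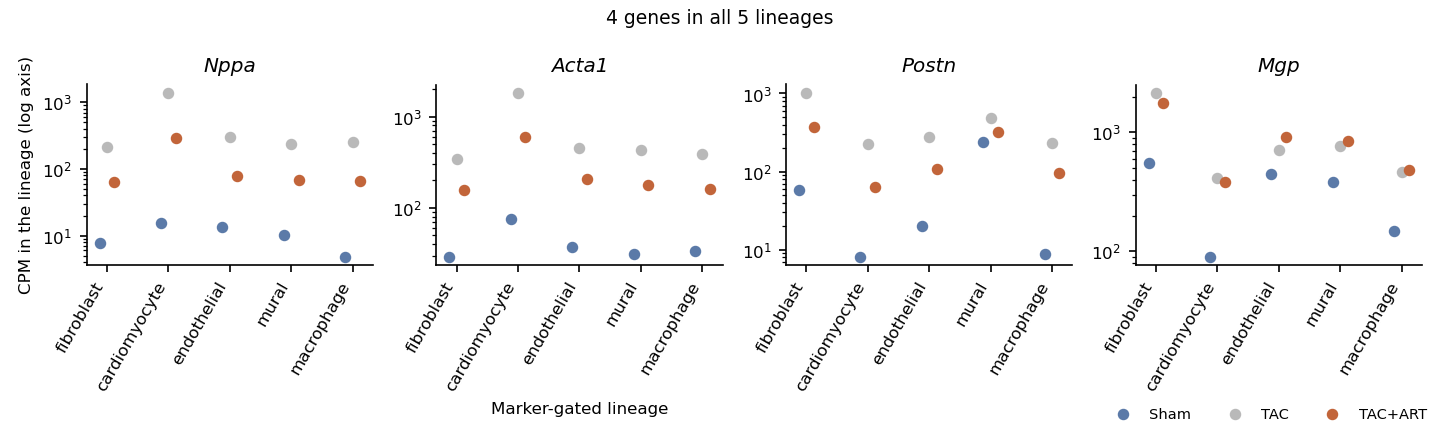
Levels (CPM, log axis) of Nppa, Acta1, Postn and Mgp in 5 lineages, with Sham in blue, TAC in grey and TAC+ART in orange. The order Sham, TAC+ART, TAC for Nppa and Acta1 is the same in all 5 lineages.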

How the data were processed

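RNA of single droplets was measured in 3 libraries. The authors deposited UMI counts per gene and barcode (29994 gene symbols), as raw values. Cell Ranger, Seurat and the mm10 build are named per the submitters' processing notes, without versions or an annotation. Few barcodes reached 10000 UMIs (9, 3 and 9 in Sham, TAC and TAC+ART) while 161, 405 and 282 lay from 9000 to 10000, so a filter before deposit is possible, and its part was not tested.

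The filter asked for 500 or more UMIs, 300 or more genes and no more than 10% mitochondrial UMIs per barcode. Doublets were scored per library by simulation, and 0.8% per 1000 barcodes were removed (112 in Sham, 440 in TAC, 376 in TAC+ART). Each cell got a score per lineage from marker genes, relative to the mean of the 50 highest barcodes. It was assigned when at least 3 markers were present, the score was at least 0.1 and 2 times that of any rival. An earlier scaling by the top 0.5% of barcodes left 827, 1176 and 1360 cells unassigned and was replaced, with counts of assigned cells but no gene ratio in view. That earlier scaling gated all lineages and asked no minimum of markers of a rival. The scaling used left 206, 572 and 511. Lymphoid (19, 80 and 52 cells) and epicardial cells (14, 1 and 22) were too few to compare, and Schwann cells, adipocytes and neutrophils were not gated.

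UMIs were summed per lineage and library. Intervals of gene ratios are exact conditional binomial, those of shares Clopper-Pearson and those of levels Poisson, at 95%. Those of share ratios are a normal approximation on the log scale (delta method), also at 95%. Genes needed 100 UMIs in Sham and TAC+ART together to be measured. Analyses ran in Python 3.11.15 with numpy 2.4.6, scipy 1.17.1, pandas 2.3.3 and scikit-learn 1.9.0. Tested on simulated fibroblast sums of 11518 genes with 186 of them altered, the steps called 99.5% of those, called 1 unaltered gene, and 95.6% of intervals held the true ratio. Every altered gene was set clearly past 2-fold, and counts were drawn with Poisson error alone, as the intervals assume. High recovery and coverage were therefore largely set in advance, and genes near 2-fold were not simulated. The simulated sums also begin after gating and hold no separate hearts. How often calls in the real libraries were wrong was not tested. Gene positions are from GENCODE M21, which holds 28522 of the symbols, and promoters from RefSeq.

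Named genes were the 12 highest and 12 lowest ratios in fibroblasts and 8 each way in the other lineages, at 50 CPM or more in the higher library. Mitochondrial, ribosomal protein, haemoglobin and sex-linked genes, Malat1, gate markers and genes more than 5-fold below their highest lineage in either library were left out. The 2 highest and 2 lowest members of each list, genes above or below both other libraries, and a few fixed genes were added. Of the genes so chosen, 1 is not reported here. Other list members and thinned shares named in the text, and genes ranked where their lineage is the highest, were chosen after values were seen. The members and lists were chosen with earlier results of these data known. The 51 pairs of list and lineage described were narrowed from 133 after all medians had been seen. The antigen presentation medians of cardiomyocytes and mural cells are given for comparison and are not counted among the 51.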

Additional observations from a re-analysis of the deposited data

Results flagged for a closer look

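For 3 genes the ratio of TAC+ART to Sham was at least 2-fold in opposite directions in 2 lineages, with both intervals apart from 0. The difference between lineages was not tested. A stricter form of this search, which asked for a level within 5-fold of the highest lineage in both libraries, found 0 genes, and the form used asks it only of the library with the higher level, a choice made after the first result was seen. Arntl, the clock activator, had a log2 ratio of 1.54 in fibroblasts (5.45 CPM in Sham, 66.0 in TAC, 16.0 in TAC+ART) and -1.97 in macrophages (63.9, 54.9 and 16.3 CPM). Cadm2, a cell adhesion molecule, had 2.48 in endothelial cells (1.91, 2.75 and 11.1 CPM) and -1.02 in fibroblasts (23.1, 1.12 and 11.4 CPM). Iigp1, an interferon-induced GTPase, had 1.06 in macrophages (34.8, 20.8 and 73.3 CPM) and -1.23 in cardiomyocytes (114, 32.9 and 48.4 CPM).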

How the results depend on the processing

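Settings tried were another gate width, doublets kept, other totals and centring, a pseudocount of 1, at most 8000 UMIs per cell, means over cells, and other minimum counts. Of 1824 such alternatives for the 167 named results at 2-fold, 1749 stayed at 2-fold and 0 changed sign. The other minimum counts leave a gene's own ratio as it was, so those alternatives, counted among the 1824, could not differ. The number of genes past 2-fold depended on the minimum count. With at least 20 UMIs and with no filter beyond 1 UMI, genes higher in TAC+ART numbered 741 and 2605 in fibroblasts, 785 and 4019 in cardiomyocytes, 441 and 2158 in endothelial cells, 413 and 3574 in mural cells, 558 and 1475 in macrophages, and 592 and 2513 in whole libraries. Genes lower numbered 442 and 2644, 376 and 3221, 258 and 2602, 215 and 3046, 422 and 3078, and 631 and 2804 in the same order. With a stricter gate 131 genes were higher in cardiomyocytes and 38 lower in endothelial cells, with a looser gate 35 were lower in endothelial cells and 74 in macrophages, and with the makeup held at Sham 98 were lower in whole libraries. The first gate scaling, added after the data were seen, gave a fibroblast share ratio of 0.26, and the stricter gate gave share ratios of -0.44 (endothelial), -0.78 (mural) and 0.65 (macrophage). Among named genes with an interval apart from 0, signs turned for Myh6 in cardiomyocytes (-0.0795) and Ptgs2 in endothelial cells (0.15) at 8000 UMIs or fewer. The sign also turned for Acta2 in mural cells (0.81) with the stricter gate. Beyond the settings that change the filter itself, the cause was not tested. A list median was counted as changed in sign only if it lay farther from 0 than the median interval half-width of its members. By that rule none of those described changed sign, and 12 alternatives moved past that half-width. Medians nearer 0 could turn without being counted. In endothelial cells interferon response went from 0.02 to -0.07 without members more than 5-fold below another lineage. Among the 82 other pairs, 5 alternatives changed sign and 36 moved by the same rule.
No paired analysis was possible because each group has 1 library. Pooled hearts leave the spread between animals unmeasured, and intervals cover counting error only.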

Other observations

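A few genes of the whole libraries stood out and belong to no list. Scgb1a1, a secretoglobin of airway club cells, had 0 (Sham), 2 (TAC) and 288 (TAC+ART) UMIs, the last in 252 of 6480 cells (3.89%), with at most 3 in any cell and in all 5 lineages. Against a floor of 3 counts over the Sham library it was at least 52.8-fold higher. Bpifa1, a secreted protein of the airway, had 0, 0 and 134 UMIs, the last in 128 cells, which is at least 24.6-fold above the same floor. A count of 0 in 3638 Sham cells allows a share of up to 0.0825% of cells with a UMI at this depth, which is no limit on cells that express the gene. Xlr3b, an X-linked lymphocyte-regulated gene, had 9, 62 and 226 UMIs, the last in 212 cells. Fam163b had 5, 229 and 181 UMIs, and 116 of the 121 TAC+ART cells that held it were fibroblasts. Fos, an immediate early gene, had 153, 410 and 37 UMIs, or 9.07, 11.8 and 1.21 CPM. These genes were chosen after their values were seen.

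Edil3, an integrin-binding matrix protein, was chosen after its values were seen and lies outside the ranking because macrophages hold it at a higher level. In cardiomyocytes it had 171, 9 and 2 UMIs in the same order, or 82.2, 7.40 and 0.914 CPM. In macrophages it was at 113, 285 and 150 CPM.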
